A study of Homo sapiens with 6 samples.

Results

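The chitinase-like proteins CHI3L1 and CHI3L2 and the active chitinase CHIT1 were examined in NK92 cells with or without knockdown of the lncRNA miR155HG. The members were 3 of the 36601 genes in the count table, taken by symbol, and the set was chosen because CHI3L1 differed strongly between the groups compared here. RNA-seq was made from NK92, an NK cell lymphoma line that depends on IL-2, in which a stable shRNA was either a control (shCtrl) or directed at miR155HG (shmiR155HG). Both groups had 3 libraries and had been stimulated with IL-2 at 1000 U/mL plus IL-12 at 10 ng/mL for 12 h, so that no unstimulated cells entered the comparison. The sample titles and the treatment labels gave different numbers in the gene name for shmiR155HG replicates 2 and 3, and the titles were followed. The sources used here do not say whether the libraries of a group came from separate transductions, and an effect of the knockdown cannot be told apart from a difference between the cell lines.

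The libraries held 33454786 to 39157264 counts. Levels are given as CPM, that is, relative to the total count of each library after TMM scaling. MIR155HG, the target of the shRNA, had 62 to 73 counts in the shCtrl libraries and 10 to 28 in the shmiR155HG libraries, with no overlap (log2 fold change −1.78, SE 0.43, edgeR adjusted p = 0.0045). All 9 of the NK cell markers examined, among them NCAM1 and NKG7, passed the expression filter, which asked for a level over 1 CPM in 2 or more libraries. Of these markers, GZMB, PRF1 and NCR3 fell, KLRC1 rose and 5 were not called at an adjusted p under 0.05. Among all genes tested, 8.02% fell and 7.26% rose at this threshold, and nothing particular to the markers is read from their counts. The call for KLRC1 was lost without shCtrl replicate 3 (edgeR adjusted p = 0.115), shmiR155HG replicate 2 (0.0832) or shmiR155HG replicate 3 (0.117). The summed level of the 9 was 3000.0 to 3090.0 CPM in shCtrl and 2290.0 to 2410.0 CPM in shmiR155HG libraries. Most of this difference lay in GZMB, which averaged 1200 CPM in shCtrl and 543 CPM in shmiR155HG cells. The part of these markers in the result on CHI3L1 was not tested.

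CHI3L1, also called YKL-40, is a secreted glycoprotein of glycoside hydrolase family 18 (GH18). It binds chitin, a polymer of N-acetylglucosamine, but has lost the residues needed to cleave it, and CHI3L2 (YKL-39) is a second human member of this kind. CHIT1, chitotriosidase, is a true chitinase made mainly by activated macrophages. CHI3L1 is best known from macrophages, neutrophils, chondrocytes and tumor cells, where it is measured as a marker of inflammation and tissue remodelling.

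CHI3L1 (ENSG00000133048) spans 203178931 to 203186704 of chromosome 1 (hg38, minus strand), and its canonical transcript has 10 exons and 1747 nt. CHIT1 (ENSG00000133063) lies on the same strand from 203212827 to 203273641. CHI3L2 (ENSG00000064886) lies far away on the same chromosome, on the plus strand from 111200771 to 111243440. To show how alike the start sites of the 3 genes are, the bases from −45 to −16 before each RefSeq start are given here on the strand of the gene, with a TATAAA, or where it is lacking an ATAAA, in capitals. The windows were chr1:203186720-203186749 for CHI3L1, chr1:111227614-111227643 and chr1:111227668-111227697 for the upstream and downstream starts of CHI3L2, and chr1:203229689-203229718 for CHIT1, on GRCh38.p14.
CHI3L1: agtggagtgggacaggtaTATAAAggaagt
CHI3L2 upstream start: agtctgccaggggaagtccctggacttctt
CHI3L2 downstream start: tcgaaacctcagtggATAAAagacctagag
CHIT1: tgggacagggtggccagATAAAagcagagc
ATAAA was found in the window of CHI3L1, CHIT1 and the downstream start of CHI3L2, against 5.0% of 35116 RefSeq promoters searched on the same strand. TATAAA, which contains ATAAA, was found in that of CHI3L1 and in 2.38% of all promoters. The palindrome TTCNNNGAA, the core of a STAT site, was searched from 250 bases before to 50 bases after each start. It was found in both CHI3L2 promoters, whose searched regions are largely the same sequence, and not in those of CHI3L1 or CHIT1, and in 7.66% of all promoters.

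MIR155HG also gives rise to miR-155, whose mature sequence from RefSeq is shown because its seed was searched for in the members, with the seed at positions 2 to 8 in capitals.
hsa-miR-155-5p: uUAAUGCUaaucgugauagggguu
A match to this seed, AGCATTA, occurred 0 times in the 3′UTR of CHI3L1 (514 nt) and of CHI3L2 (226 nt) and 1 time in that of CHIT1 (810 nt). Of 19571 3′UTRs of canonical transcripts, 10.7% held such a match.

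CHI3L1 mRNA was abundant in shCtrl NK92 cells and was lower in shmiR155HG cells, CHI3L2 was counted at a trace level in both groups, and CHIT1 was not counted at all. In shCtrl replicates 1, 2 and 3, CHI3L1 was counted 5966, 5035 and 6130 times, or 153, 138 and 157 CPM. In shmiR155HG replicates 1, 2 and 3 the counts were 1073, 940 and 879, or 28, 24.7 and 26.3 CPM. The 3 shmiR155HG libraries lay close together and far below the 3 shCtrl libraries, and the lowest shCtrl value was 4.94 times the highest shmiR155HG value. In bulk RNA, fewer cells that express CHI3L1 and less CHI3L1 mRNA per cell cannot be told apart.

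The level of CHI3L1 was 150.0 ± 10.2 CPM (SD, n = 3) with shCtrl and 26.3 ± 1.63 CPM (SD, n = 3) with shmiR155HG, so that shmiR155HG cells had 17.6% of the shCtrl level. The fitted log2 fold change was −2.51 (SE 0.064). Since CHI3L1 was chosen on this difference, it is given as a description without a test. It lay between −2.56 and −2.46 whichever library was left out. Among all 12263 genes tested, 2 had a lower log2 fold change, and the median was 0.00097. Values of the groups did not overlap in the lower direction for 15.6% of genes tested, and in the higher direction for 15.2%. Nothing was read from the lack of overlap in CHI3L1 or in the genes named below.

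**Figure D1:**
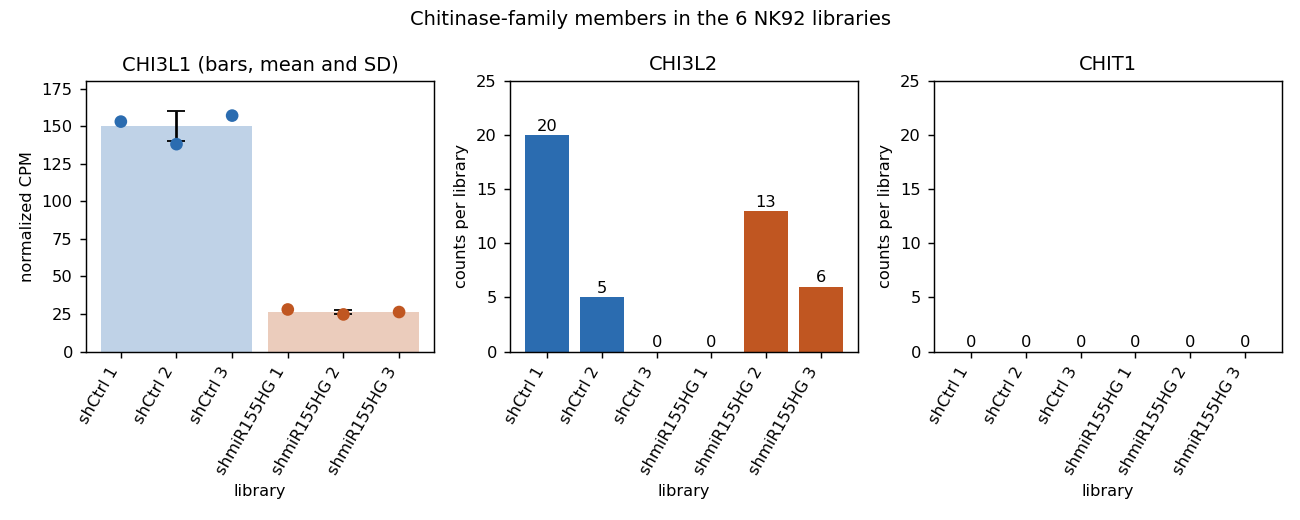
Normalized CPM of CHI3L1 (left, points for libraries, bars for the group mean with SD) and counts of CHI3L2 (middle) and CHIT1 (right) in the 3 shCtrl (blue) and 3 shmiR155HG (orange) libraries. CHI3L1 fell from 150.0 to 26.3 CPM on average, CHI3L2 ranged from 0 to 20 counts in shCtrl and 0 to 13 in shmiR155HG libraries, and CHIT1 was at 0 in every library.

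The spread between replicates does not use the difference between the groups. In shCtrl cells the CV of CHI3L1 was 6.80%, above the median of 3.51% for the 1783 genes within 1.5-fold of its level, of which 155 had a larger CV. In shmiR155HG cells, where it was counted less, its CV was 6.21%, beside a median of 6.77% for 2150 genes of like level. CHI3L1 therefore varied more than most genes of its level among shCtrl replicates, with its lowest value in replicate 2, and about as much as such genes among shmiR155HG replicates. Per kb of canonical transcript, CHI3L1 ranked 830th of 12216 genes in shCtrl cells, and 4984th in shmiR155HG cells. It thus moved from among the more abundant mRNAs of these NK cells to near the middle of the genes tested.

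CHI3L2 was counted 20, 5 and 0 times in the shCtrl libraries (replicates 1 to 3) against 0, 13 and 6 times in the shmiR155HG libraries. Each group contained a library without counts, and the groups overlapped. CHI3L2 did not pass the expression filter and so has no fitted value in the table of tested genes. With no filter its log2 fold change was −0.33 with an SE of 1.33. All but a large difference in either direction would go undetected with these few counts and their spread between libraries. Per kb of transcript, the level of CHI3L2 was 0.153 ± 0.188 CPM per kb with shCtrl and 0.123 ± 0.121 CPM per kb with shmiR155HG (SD, n = 3 each), and shCtrl replicate 1 held 20 of the 25 counts of its group. CHI3L2 overlaps DENND2D on the opposite strand, which had 5407 to 6075 counts, and whether the counting used the strand is not given in the sources used here. The spans of the genes overlap only from 111200771 to 111204535, upstream of both RefSeq starts of CHI3L2 shown above, and without strand the reads from that stretch cannot be told apart.

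CHIT1 had 0 counts in all 6 libraries, which allows a level of up to 0.077 to 0.0897 CPM per library at 3 counts, for counting error only. CHIT1 overlaps the lncRNA LINC01353, on the opposite strand, which had 0 to 12 counts. Of the members, 1 of 3 passed the expression filter, and statements on the fold change concern CHI3L1 alone.

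**Figure D2:**
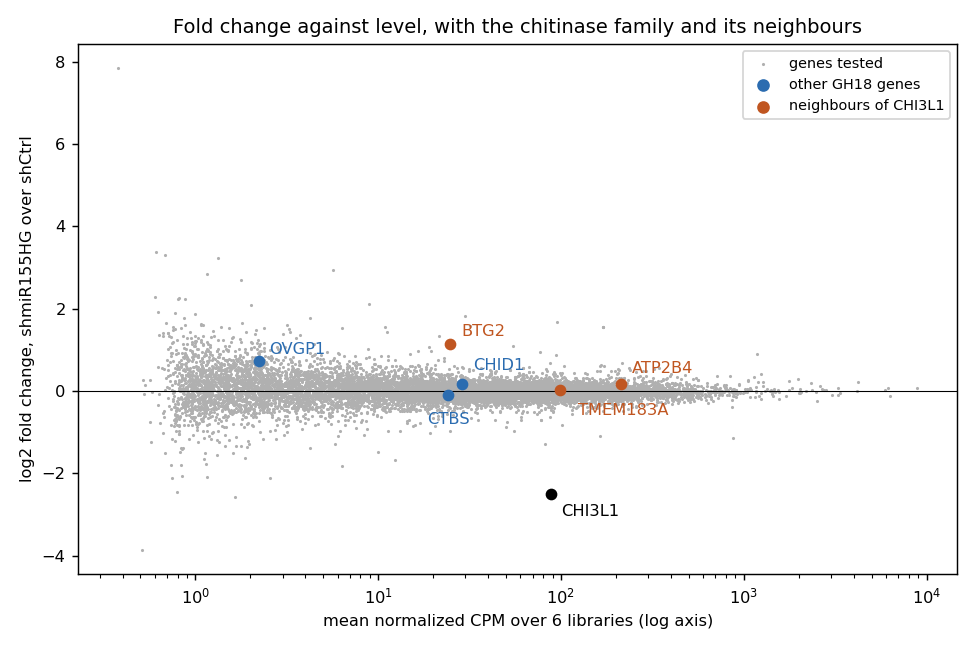
Log2 fold change of shmiR155HG over shCtrl against mean CPM (log axis) for the 12263 genes tested, with CHI3L1 in black, other GH18 genes in blue and neighbours of CHI3L1 in orange. CHI3L1 lies at −2.51, while the other GH18 genes lie at −0.10 (CTBS), 0.17 (CHID1) and 0.73 (OVGP1).

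The fold changes of the other GH18 genes tested lay between −0.10 and 0.73. CHID1, a chitinase-domain protein, had 27.1 ± 1.78 CPM in shCtrl cells and 30.4 ± 0.364 CPM in shmiR155HG cells (SD, n = 3 each) without overlap (log2FC 0.17, SE 0.086, edgeR adjusted p = 0.216), where log2FC is the log2 fold change. CTBS, a lysosomal enzyme that cleaves the chitobiose core of N-glycans, had a log2FC of −0.10 (SE 0.095, edgeR adjusted p = 0.547). OVGP1, oviductin, was counted 38, 94 and 57 times in the shCtrl libraries (replicates 1 to 3) against 74, 129 and 100 times in the shmiR155HG libraries, so that the groups overlapped (log2FC 0.73, SE 0.35, edgeR adjusted p = 0.182). CHIA, the acidic chitinase, had 0 counts in every library. Thus 0 of the 3 GH18 genes tested besides CHI3L1 passed an adjusted p of 0.05 in edgeR, DESeq2 or limma-voom, and at an unadjusted p under 0.05 there was 1 by edgeR (OVGP1), 1 by limma-voom and 0 by DESeq2.

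The other lists were related genes written from general knowledge of CHI3L1, with earlier results of these data known. Their counts are read against the share of all genes called at an adjusted p under 0.05, which was 8.02% for lower and 7.26% for higher genes. Over all lists, 39 of 64 genes passed the filter, of which 6 fell (15.4%) and 2 rose (5.13%), with a median log2 fold change of −0.0065. Nothing particular to the lists is read from these shares.

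**Figure D3:**
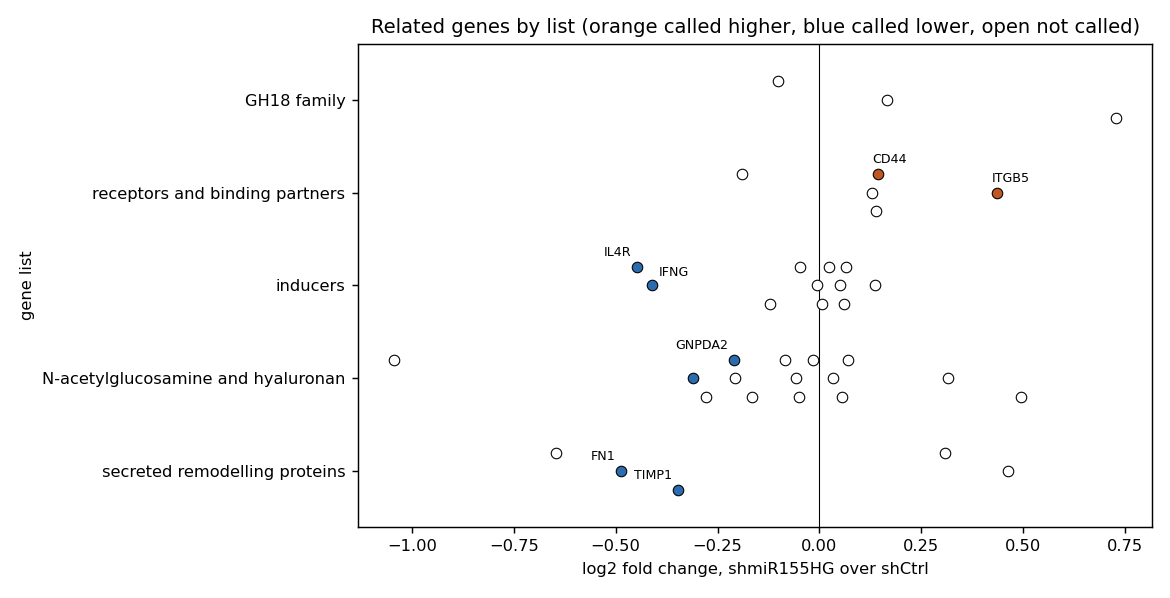
Log2 fold change of the tested genes in each list of related genes, one point a gene. The called genes are filled and those named in the text are labelled, with CD44 and ITGB5 higher and IL4R, IFNG, GNPDA2, FN1 and TIMP1 lower, while the other points are open, for genes not called.

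Among the receptors and binding partners of CHI3L1, 5 of 10 passed the filter and 2 of these rose. ITGB5, the integrin β5 chain, was counted 1344, 1389 and 1282 times in the shCtrl libraries (replicates 1 to 3) against 1781, 1792 and 1651 times in the shmiR155HG libraries, a log2FC of 0.44 (SE 0.075, edgeR adjusted p = 0.000124). Every shmiR155HG library was above every shCtrl library. CD44, the hyaluronan receptor, was the most abundant partner at 311 ± 4.15 CPM in shCtrl cells and 343 ± 1.92 CPM in shmiR155HG cells (SD, n = 3 each), a log2FC of 0.14 (SE 0.034, edgeR adjusted p = 0.00367), again without overlap. TMEM219, which forms a receptor with IL13RA2, had a log2FC of 0.13 (SE 0.087, adjusted p = 0.369). LGALS3, galectin-3, had one of −0.19 (SE 0.12, adjusted p = 0.341) and AGER, the receptor RAGE, one of 0.14 (SE 0.17, adjusted p = 0.663). IL13RA2, the receptor chain that binds CHI3L1, had 0 counts in 5 libraries and 2 in shmiR155HG replicate 3. PTGDR2, SDC1, ITGAV and ITGB3 had 0 to 11 counts per library and were not tested. ITGAV, with which ITGB5 pairs, was counted only in shCtrl replicate 2 and shmiR155HG replicate 2.

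**Figure D4:**
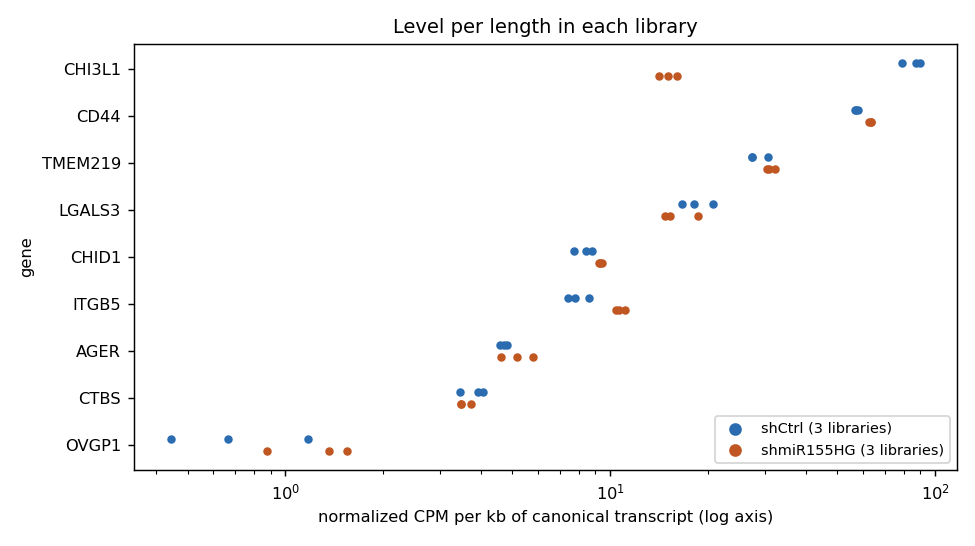
Normalized CPM per kb of canonical transcript (log axis) for CHI3L1 and the tested GH18 genes and binding partners, 1 point a library, shCtrl in blue and shmiR155HG in orange. CHI3L1 leads in shCtrl cells at 85.6 CPM per kb and in shmiR155HG cells lies at 15.1 CPM per kb, below CD44 and TMEM219 and overlapping LGALS3.

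Per kb of transcript, the order in shCtrl cells was CHI3L1 (85.6 ± 5.82 CPM per kb, SD, n = 3), CD44 (57.2), TMEM219 (28.5) and LGALS3 (18.5), and then CHID1 (8.31) and ITGB5 (7.92), whose values overlapped between libraries. In shmiR155HG cells, CHI3L1 had 15.1 ± 0.935 CPM per kb (SD, n = 3), and its values overlapped those of LGALS3.

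Of 17 cytokines, receptors and transcription factors known to induce CHI3L1, 11 passed the filter, 2 fell and 9 did not pass the test. IL4R, a receptor chain for IL-4 and IL-13, had a log2FC of −0.45 (SE 0.057, edgeR adjusted p = 1.75e-06) and IFNG, the main cytokine of activated NK cells, one of −0.41 (SE 0.045, edgeR adjusted p = 1.40e-07). Of the transcription factors, the log2FC was 0.02 for STAT3 (SE 0.042), 0.07 for NFKB1 (SE 0.043), 0.06 for RELA (SE 0.062) and −0.12 for CEBPB (SE 0.044, edgeR adjusted p = 0.0607). IL6 did not pass the filter and was counted 63, 36 and 31 times in the shCtrl libraries against 30, 12 and 15 times in the shmiR155HG libraries. IL6R and SPI1, the macrophage factor PU.1, had 0 counts in every library, and IL1B, IL4 and IL13 had at most 7.

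Of 20 genes for the supply of N-acetylglucosamine and for hyaluronan, 15 passed the filter, 2 fell and 13 did not pass the test. GNPDA2, a glucosamine-6-phosphate deaminase, had a log2FC of −0.21 (SE 0.072, edgeR adjusted p = 0.0473), a call lost in 10 of 17 alternative settings, with an adjusted p from 0.0237 to 0.468. The adjusted p for GNPDA2 was 0.279 without shCtrl replicate 1, 0.0981 without shCtrl replicate 2, and 0.0716, 0.168 and 0.117 without shmiR155HG replicates 1, 2 and 3. Of 13 secreted proteins of remodelling and inflammation, 5 passed the filter and 2 fell. FN1, fibronectin, was counted 2770, 2502 and 3034 times in the shCtrl libraries (replicates 1 to 3) against 2077, 2005 and 1621 times in the shmiR155HG libraries, a log2FC of −0.49 (SE 0.067, edgeR adjusted p = 5.24e-06). TIMP1, a metalloproteinase inhibitor, had one of −0.35 (SE 0.056, edgeR adjusted p = 6.31e-05). MMP9 (log2FC 0.31, SE 0.19) and SPP1 (−0.65, SE 0.42) did not pass the test.

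Genes around the members were examined next. Within 500 kb of CHI3L1 and CHIT1, 8 of 23 other genes passed the filter, and their median log2 fold change was −0.053. The nearest tested gene on the CHIT1 side was BTG2, an antiproliferative gene induced by p53, whose start site lies 119 kb from that of CHI3L1. BTG2 was counted 600, 524 and 640 times in the shCtrl libraries (replicates 1 to 3) against 1335, 1358 and 1089 times in the shmiR155HG libraries, and it rose by 1.16 on the log2 scale (SE 0.094, edgeR adjusted p = 6.84e-10) with no overlap between the groups. On the other side, the nearest tested gene was TMEM183A, with a log2FC of 0.04 (SE 0.050, edgeR adjusted p = 0.711). ATP2B4, a plasma membrane calcium pump, rose by 0.17 (SE 0.040, edgeR adjusted p = 0.00469), and the call was lost without shmiR155HG replicate 1 (adjusted p = 0.055, the highest of its alternatives). ADIPOR1, an adiponectin receptor, had a log2FC of −0.17 (SE 0.054, edgeR adjusted p = 0.0329), with overlapping groups and a call lost in 6 of 17 alternative settings, with an adjusted p from 0.00642 to 0.856. The adjusted p for ADIPOR1 was 0.0578 without shCtrl replicate 1, 0.144 without shCtrl replicate 3, 0.177 without shmiR155HG replicate 2 and 0.209 without shmiR155HG replicate 3.

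MYBPH, a muscle myosin-binding protein gene chosen after its values were seen, starts 3104 bases beyond the 3′ end of CHI3L1 and is read in the same direction. It was counted 8, 23 and 25 times in the shCtrl libraries and 0 times in each shmiR155HG library. With a floor of 3 counts over the shmiR155HG group it was at least 17.9-fold lower. This value is a bound set by that floor, not a measured fold, and it leaves out the spread between libraries. It was too low to be tested. Per 100 counts of CHI3L1, MYBPH had 0.134, 0.457 and 0.408 counts in the shCtrl libraries. Whether the changes in MYBPH and CHI3L1 are linked was not tested.

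**Figure D5:**
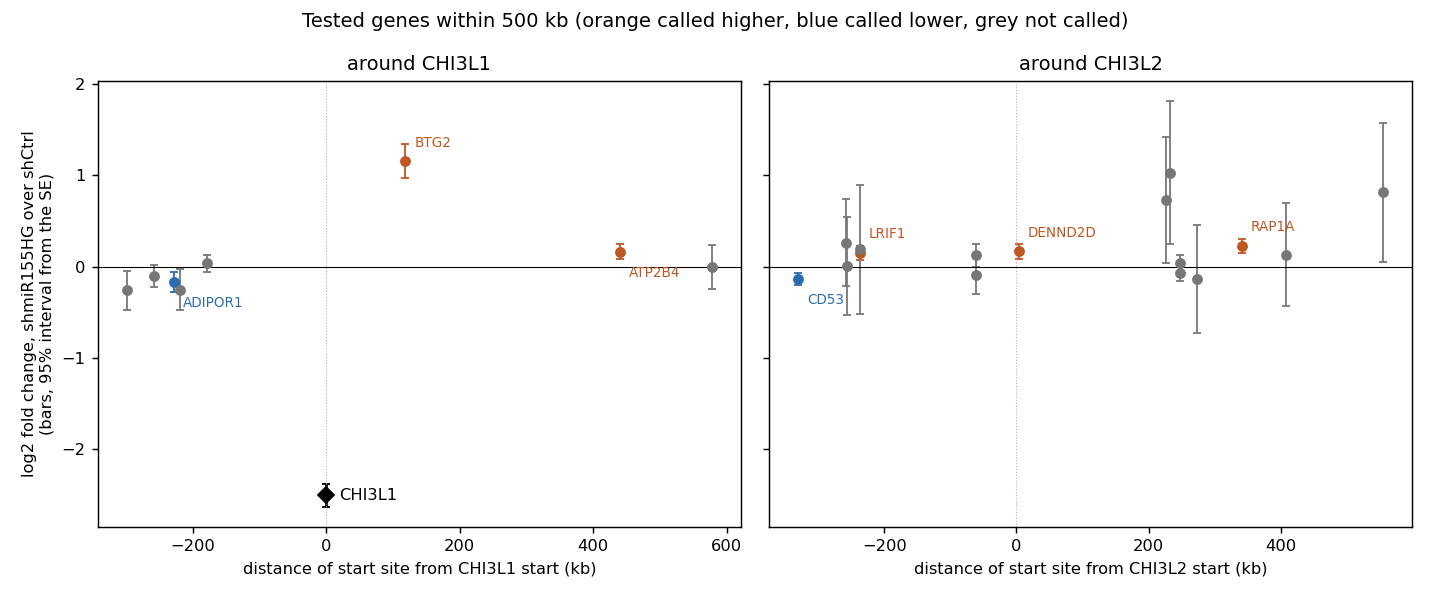
Log2 fold change (points, bars for the 95% interval from the SE) of tested genes within 500 kb against the distance of their start site from that of CHI3L1 (left, with CHI3L1 as a black diamond) or CHI3L2 (right). Start sites are the starts of the GENCODE gene spans, which for CHI3L2 lies upstream of both RefSeq starts shown above. CHI3L1 lies at −2.51 and BTG2 at 1.16, while the called genes around CHI3L2 lie between −0.14 and 0.23.

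Within 500 kb of CHI3L2, 16 of 25 other genes passed the filter, and 3 rose and 1 fell. DENND2D, the gene that overlaps CHI3L2, rose by 0.17 (SE 0.043, edgeR adjusted p = 0.00780), LRIF1 by 0.15 (SE 0.041, adjusted p = 0.0113) and RAP1A, a small GTPase of cell adhesion, by 0.23 (SE 0.037, adjusted p = 7.33e-05). The call for LRIF1 was lost without shmiR155HG replicate 1 (adjusted p = 0.0638), and its adjusted p over all alternatives ranged from 0.00321 to 0.117. CD53, a tetraspanin of leukocytes, fell by 0.14 (SE 0.034, adjusted p = 0.00617). The nearest tested gene on the other side was OVGP1. Over both regions, 24 neighbours were tested, of which 8.33% fell and 20.8% rose, against 8.02% and 7.26% of all genes. Genes side by side share their region, so these counts describe the regions and are no test of them.

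The genes whose pattern was most like that of CHI3L1 were sought over 11891 genes, those whose mean reached 1 CPM. By Pearson's r of log2 CPM over the 6 libraries, they were BST2 (r = 0.998), CLU (0.998), FAM111B (0.998), ASIC1 (0.998) and GZMB (0.997). BST2 is the antiviral protein tetherin, CLU the secreted chaperone clusterin, ASIC1 an acid-sensing ion channel and GZMB the granule protease granzyme B. The log2 fold changes were −0.30, −0.71, −0.48, −1.67 and −1.14 in the same order, each smaller in size than that of CHI3L1. With 6 libraries in 2 groups this measure mostly ranks genes by how cleanly the groups separate, and 370 genes had an r over 0.95. By the r of deviations from the group mean, the 5 most alike included TAX1BP1, LIMA1, C1orf56 and POC1B-AS1 (r from 0.991 to 0.997), all with a low value in shCtrl replicate 2. The lists shared 0 genes. By edgeR, 5 of 5 genes of the first and 0 of 5 of the latter were called lower, against 8.02% of all genes tested. Ranking over both groups favours genes that differ as CHI3L1 does, and ranking on deviations takes the group difference out. Nothing is therefore read from these calls.

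Markers of other cell types were examined because several are known to make these proteins. Of 9 macrophage and monocyte markers, CD163 and MRC1 had 0 counts in every library, LYZ had 3 counts in 1 library, and 3 passed the filter (CD68, CSF1R and ITGAM, the last of which NK cells also express). Of the others, named after their values were seen, CD14 had 7, 2 and 0 counts with shCtrl against 10, 23 and 17 with shmiR155HG, and MARCO had 2, 5 and 4 against 0, 0 and 0, so that both were without overlap but in opposite directions, and both were too low to be tested. The summed level of the 9 markers ranged from 21.4 to 29.4 CPM in shCtrl libraries and from 15.8 to 21.8 CPM in shmiR155HG libraries. ITGAM fell, with a log2FC of −0.60 (SE 0.17, edgeR adjusted p = 0.0161), a call lost in 6 of 17 alternative settings, with an adjusted p from 0.00162 to 0.260. The adjusted p for ITGAM was 0.0583 without shCtrl replicate 2, 0.181 without shCtrl replicate 3, 0.062 without shmiR155HG replicate 1 and 0.0877 without shmiR155HG replicate 3. The 6 neutrophil markers summed to 1.05 to 1.54 CPM in shCtrl and 0.315 to 0.964 CPM in shmiR155HG libraries, with MPO and ELANE at 0 in every library, and the 4 chondrocyte markers to at most 0.0525 CPM. The 4 T cell and 3 B cell markers summed to at most 0.920 and 1.13 CPM. The part of these markers in the result on CHI3L1 was not tested.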

How the data were processed

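RNA-seq of 6 NK92 samples was analysed. The values deposited by the authors are whole-number gene counts with no normalization, made by alignment to hg38 with HISAT2, StringTie with its reference-only option and prepDE.py3. Strand use, annotation release and the read length given to prepDE.py3 are not given in the sources used here, so a count may stand for less than 1 read. Samples were grouped by title. In R 4.3.3, the 12263 genes over 1 CPM in 2 or more libraries were scaled with TMM in edgeR 4.0.16 and compared with its robust quasi-likelihood test, without a block, at a Benjamini-Hochberg adjusted p under 0.05. SE is that of the log2 fold change. DESeq2 1.42.0 and limma 3.58.1 served as alternatives. p-values measure the spread between libraries, which may be technical. Positions and lengths came from GENCODE for hg38, promoters and miRNAs from RefSeq. The members and lists were chosen with earlier results of these data known. The genes named were the members, the GH18 genes and binding partners that passed the filter, called genes of the other lists (up to 4 a direction by smallest p), called and nearest neighbours, and the 5 genes most like CHI3L1 by each measure, with others named for context. Some genes that this rule takes are not reported here.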

Additional observations from a re-analysis of the deposited data

How the results depend on the processing

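The log2 fold change of CHI3L1 kept its direction and moved by less than the spread between replicates under all 17 alternatives, from −2.56 to −2.42, the latter with shmiR155HG replicate 1 alone against the shCtrl libraries. That setting was chosen after seeing the data, because it is the replicate whose labels agree. It left 189 genes higher and 228 lower, 0 of the listed genes and 3 of the neighbours higher, and 0 neighbours lower, with 1 library in a group whose spread is taken from shCtrl. With limma-voom, 1 neighbour was lower. Leaving out 1 library at a time gave 580 (without shmiR155HG replicate 2) to 891 genes higher, 3 (without shmiR155HG replicate 1) to 6 neighbours higher, and 1 to 2 neighbours lower, with 1 when shCtrl replicate 1 or 3 or shmiR155HG replicate 2 or 3 was left out. CHI3L2 passed the filter only where there was none, and CHIT1 had no counts, so neither could be compared across settings. Same-numbered libraries did not deviate together (r from −0.014 to 0.016 over 12263 genes), and with the replicate number as a block the value for CHI3L1 was −2.51, with 829 genes higher and 909 lower. The calls lost only with shmiR155HG replicate 1 alone included those of CD44, ITGB5, TIMP1, DENND2D and CD53. Depth limits statements on CHI3L2, MYBPH and other genes with few counts, and MIR155HG itself rests on at most 73 counts per library.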
